A study of Mus musculus with 6 samples.

Results

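The genes described here supply activated T cells with amino acids and charge them onto tRNA, together with Myc and the polyamine enzymes. The 39 members were chosen by name for their function, and the rule uses no measured value: Myc, its partner Max and 2 polyamine enzymes, 9 amino acid transporters, 9 enzymes of serine, asparagine and one-carbon metabolism, and 17 cytosolic aminoacyl-tRNA synthetases. They were named with earlier results of these data known, so their counts beside the shares of all genes are a description. Each member matched exactly 1 of the 47069 Ensembl genes shared by the deposited tables. With the filter of a mean of at least 1 FPKM (fragments scaled to gene length and library size), 38 members passed over all 6 libraries and 37 over the 72 h libraries. Slc7a11 failed both filters and Slc1a4 the latter.

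The 6 libraries came from mouse regulatory T cells (Treg cells), sorted out of lymph node and spleen as CD4+GFP+CD62Lhigh cells; Dynabeads then activated them for 48 h or for 72 h. Het libraries carried Foxp3CreNoc4l+/fl and cKO libraries Foxp3CreNoc4lfl/fl, so Cre was driven by Foxp3 in every group, the controls had a floxed Noc4l allele too, and no Cre-free group was among these samples. The labels are not of one mind, since a passage on the mice assigns the same alleles to both genotypes; here each library has the genotype of its own sample label. Het replicate 1 and cKO replicate 2 were sequenced at both times, and Het replicate 3 and cKO replicate 4 at 72 h alone, in a table of their own. The labels do not say whether libraries came from separate animals or pools and give no ages, so p-values here reflect how far these libraries spread, which may be technical.

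The targeted gene went against the labels. In all 3 pairs Noc4l was higher in the cKO library, at 124 FPKM over 99.1 (48 h), 81.7 over 48.8 (72 h, replicates 2 and 1) and 58.1 over 40.8 (72 h, replicates 4 and 3). Each gene has a single value, so reads of the floxed exons alone were not analysed here. Het and cKO below mean libraries labelled so. The summed FPKM of 6 Treg genes (Foxp3, Il2ra, Ctla4, Ikzf2, Tnfrsf18, Cd4) was 2562 to 3271 per library, none of them at 0. Markers of other cells were uneven: the 6 neutrophil genes summed to 371 FPKM in cKO 2 at 48 h and 328 at 72 h, and to at most 75.5 in the other 4 libraries, where most of that sum was Ltf. Summed FPKM of the 6 B cell genes was 85.7 in cKO 2 at 72 h and at most 24.5 elsewhere, the 4 CD8 T and NK cell genes to 60.0 in cKO 2 and 31.9 in Het 1 at 72 h and at most 7.43 elsewhere, the 5 monocyte, macrophage and dendritic cell genes to 40.2 and 27.7 in cKO 2 and at most 0.611 elsewhere, the 5 erythroid genes to 1.45 to 30.8, and 2 platelet genes to at most 0.272. S100a8, S100a9 and Lyz2, which define neutrophils and monocytes, were at 0 in Het 3 and cKO 4. Depth, estimated from the steps of the FPKM values, was 16.5 (cKO 4 at 72 h) to 28.8 (Het 1 at 48 h) in units of 1e+06 fragments.

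A T cell that leaves quiescence takes up amino acids through plasma membrane carriers, makes serine and the one-carbon units needed for nucleotides, and attaches amino acids to tRNA with a dedicated synthetase for each amino acid. Myc, which binds DNA as a dimer with Max, is known to drive much of this programme in activated T cells, and polyamines made by Odc1 and Srm sustain translation. Shortage of amino acids is sensed by the kinase GCN2, which leads to the transcription factor ATF4 and through it to genes such as Asns, transporters and synthetases.

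Promoter sequence shows which members carry the letters of these control elements. Promoters came from RefSeq (build GRCm38.p6) and were matched by gene symbol, since the submitters' notes name another build (mm9) for the expression values. Of the 39 members 27 matched; Myc, Srm, Slc7a5, Slc1a5, Slc38a1, Cars, Hars, Lars, Nars, Rars, Vars and Wars had no entry. In the 250 bases before the start, on either strand, the core of the amino acid response element bound by C/EBP and ATF factors (TGATGNAA) lay in 5 of 27 members (18.5%) and in 3.45% of 32851 promoters. The E-box bound by Myc with Max (CACGTG) lay in 2 of 27 members (7.41%) and in 6.02% of all promoters. The matches are a description of letters and not of binding. The windows shown hold 1 motif each, and not every match is shown. The windows below show some of the expressed members among them, in lower case with the motif in capitals, 5′ to 3′ on the strand of the gene:
Asns, amino acid response element, chr6:7693214-7693243, minus strand: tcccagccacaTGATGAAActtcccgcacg
Gars, amino acid response element, chr6:55037947-55038000, plus strand: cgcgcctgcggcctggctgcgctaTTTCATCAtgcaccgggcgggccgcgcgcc
Tars, amino acid response element, chr15:11399659-11399688, minus strand: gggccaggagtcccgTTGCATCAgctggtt
Iars, E-box, chr13:49682037-49682090, plus strand: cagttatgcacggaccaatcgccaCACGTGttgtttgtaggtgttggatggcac
In Asns the element reads in the direction of the gene and begins 23 bases before the start. In Gars and Tars it lies on the opposite strand, beginning 30 and 15 bases before the start. The sequence around the motifs of Asns and Tars overlaps an annotated exon, so these motifs may lie in transcribed sequence. Slc7a11, whose promoter holds 2 copies, was close to absent from these cells.

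Per length, the members spanned a wide range of expression. Phgdh, the first enzyme of serine synthesis, had the highest mean over the 6 libraries at 315 FPKM, followed by the valyl-tRNA synthetase Vars at 311 and the glutamine carrier Slc1a5 at 237. Phgdh ran from 153 to 496 FPKM across libraries and Vars from 241 to 360.4, and their order differed between libraries. At 48 h Phgdh exceeded Vars (496 over 356 in Het, 486 over 360.4 in cKO). At 72 h Phgdh lay below Vars except in cKO 2 (335 over 280.3). At the low end lay Asns at 14.1 FPKM, the neutral amino acid carrier Slc1a4 at 1.33 and the cystine carrier Slc7a11, which did not exceed 0.173 FPKM in any library. Synthetases ran from Vars down to Lars, for leucine, at 23.6 FPKM. The libraries gave each member enough fragments that counting error was small, with a median coefficient of variation of 2.78% in the library with the fewest fragments and at most 13.7% apart from Slc1a4 and Slc7a11.

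Genotype at 48 h was compared with 1 library each and no test, and the members were nearly level. Their median log2 ratio, cKO over Het on log2(FPKM + 1), was 0.00 over 38 members, against 0.00 over all 12394 genes. Of the 38, 18 were above 0 and 20 below, as were 6097 and 6288 of all genes. The extremes were Asns at 0.37 and the mitochondrial one-carbon enzyme Mthfd1l at -0.29. No member reached a 1.5-fold difference in either direction, which 3.04% of all genes did upward and 2.02% downward. At this time cKO 2 already held neutrophil transcripts (371 FPKM summed, against 44.0 in Het 1), and their part in these ratios was not tested.

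At 72 h most members stood higher in the libraries labelled cKO, and the size depended on the pair. In replicates 1 and 2 the median log2 ratio was 0.59, with 35 of 38 members above 0 (6935 of all 12394 genes were). In replicates 3 and 4 it was 0.10, with 26 of 38 above 0 (7696 of 12394 genes). The medians of all genes were 0.06 and 0.08. At least 1.5-fold higher were 19 of 38 members in the first pair (13.2% of all genes, and 10.7% of those averaging 20 FPKM or more, a level that 35 members have) and 2 of 38 in the second (9.77% and 4.21%), Odc1 and Asns. None was 1.5-fold lower in the first pair (10.1% of all genes), and 1, Myc, was in the second (4.77%). The ratio was larger in the pair of replicates 1 and 2 for 35 of 38 members, which held for 46.4% of all genes, and Odc1, Asns and the glutaminyl-tRNA synthetase Qars were the exceptions. Fewer cells of a type and less RNA per cell cannot be told apart in such bulk libraries.

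**Figure D1:**
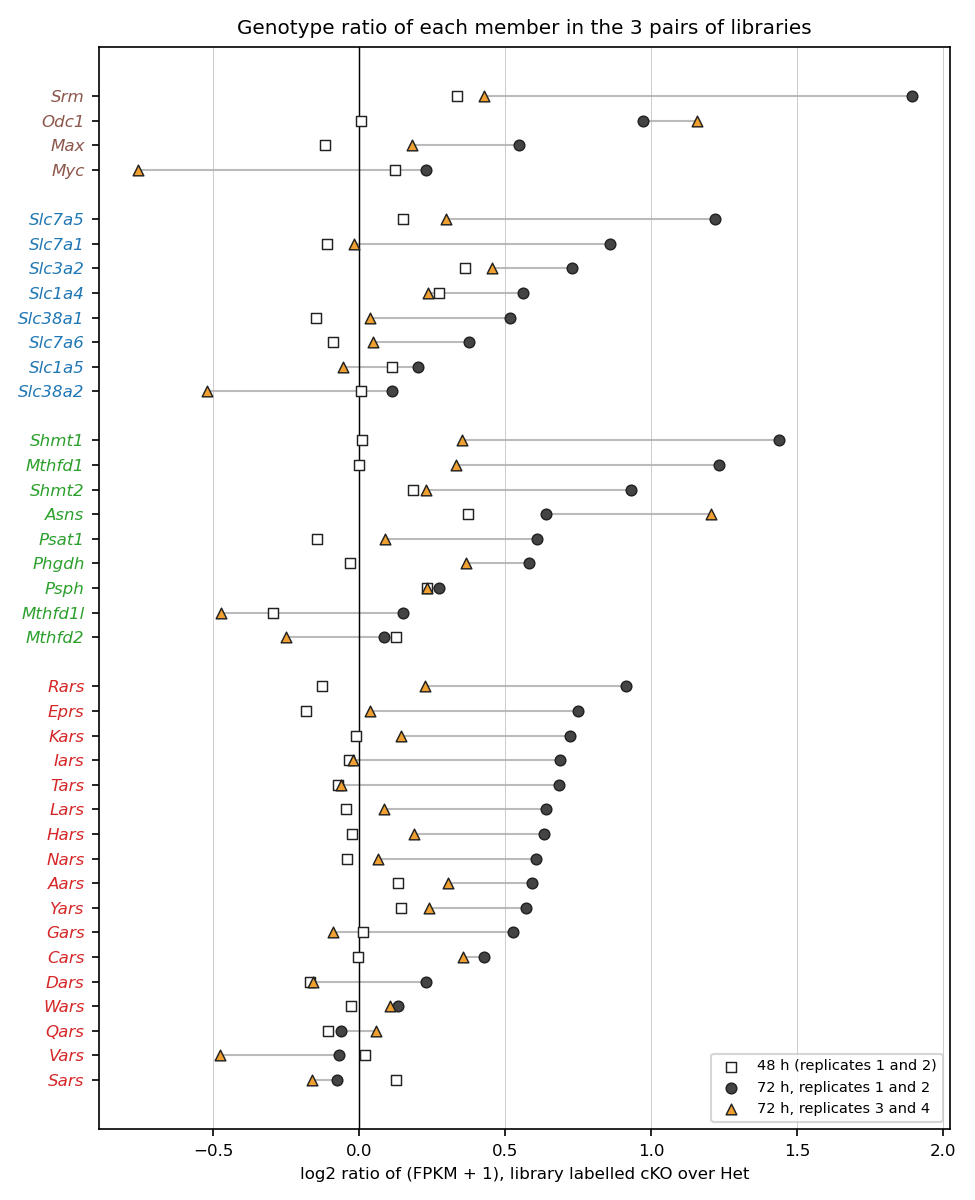
Log2 ratio of FPKM + 1, library labelled cKO over Het, for the 38 members measured in the 6 libraries (vertical axis, coloured by class). Squares are 48 h, circles 72 h in replicates 1 and 2, triangles 72 h in replicates 3 and 4, each 1 library over 1 library. Circles lie right of 0 for 35 of 38 members, and triangles lie left of the circles except for Odc1, Asns and Qars.

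No member passed the test across both pairs at 72 h. Of 37 tested, 0 had a limma adjusted p under 0.05 (0% of 12488 genes), and the smallest was 0.121. At an unadjusted p under 0.05, 10 members were higher (10.3% of all genes were) and 0 lower (6.99%). When each library was centred on its median, 4 members were higher and 0 lower at that level, beside 7.09% and 9.95% of all genes. With no table term 1 member was higher and 0 lower (5.27% and 3.7% of all genes). With no variance trend 4 were higher and 0 lower (10.2% and 6.5%). Quantile normalization gave 8 higher (7.8%), no filter 14 of 39 (6.94%), and each other alternative with all libraries 10. The median log2 fold change of the 37 members was 0.36, against 0.08 for all genes. Of the 37, 30 were above 0, as were 7504 of the 12297 genes that passed both filters. In 25 of 38 members cKO exceeded Het within both pairs (42.6% of all genes), and 2 lay below in both. In 10 of 38 members each cKO library exceeded each Het library (25% of all genes), and in 1, Vars, each lay below (13.7%). The fit carried the table as a term and had 1 residual degree of freedom.

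Myc itself had opposite signs in the pairs. Its level at 48 h was 158 FPKM (Het) and 172 (cKO), and at 72 h it was 131 in Het 1, 154 in cKO 2, 160.2 in Het 3 and 94.3 in cKO 4. The lowest library was thus a cKO library, the Het values lay on either side of cKO 2, and the groups overlapped. Its log2 fold change over both 72 h pairs was -0.26 ± 0.28 (SE, 95% interval -1.04 to 0.52, limma adjusted p = 0.642), with 0.23 in the first pair and -0.76 in the second. Max stood at 96.9 and 89.3 FPKM at 48 h, and at 72 h at 73.5 (Het 1), 108 (cKO 2), 62.2 (Het 3) and 70.7 (cKO 4). It was higher in cKO in each pair while the groups overlapped, with a log2 fold change of 0.36 ± 0.15 (limma adjusted p = 0.328).

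The polyamine enzymes had the largest fold changes of the members tested at 72 h, an order that depends on the setting, since with a pseudocount of 0.1 Asns (1.09) was level with Odc1 (1.07). Odc1, ornithine decarboxylase, which commits ornithine to polyamines, started level at 48 h, with 271 FPKM (Het) and 272 (cKO). At 72 h it was 118 in Het 1 and 69.3 in Het 3, against 232 in cKO 2 and 156 in cKO 4. The cKO libraries lay above both Het libraries, and the ratios of the pairs were alike, at 0.97 and 1.16. Its log2 fold change was 1.07 ± 0.13 (SE, 95% interval 0.71 to 1.43, limma adjusted p = 0.121). Srm, spermidine synthase, was 159 and 201 FPKM at 48 h and 56.2 (Het 1), 48.0 (Het 3), 212 (cKO 2) and 64.9 (cKO 4) at 72 h. Here too the groups did not overlap, but cKO 4 stood close to Het and cKO 2 far above, and the log2 fold change of 1.16 ± 0.39 (limma adjusted p = 0.273) rested on ratios of 1.89 and 0.43.

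**Figure D2:**
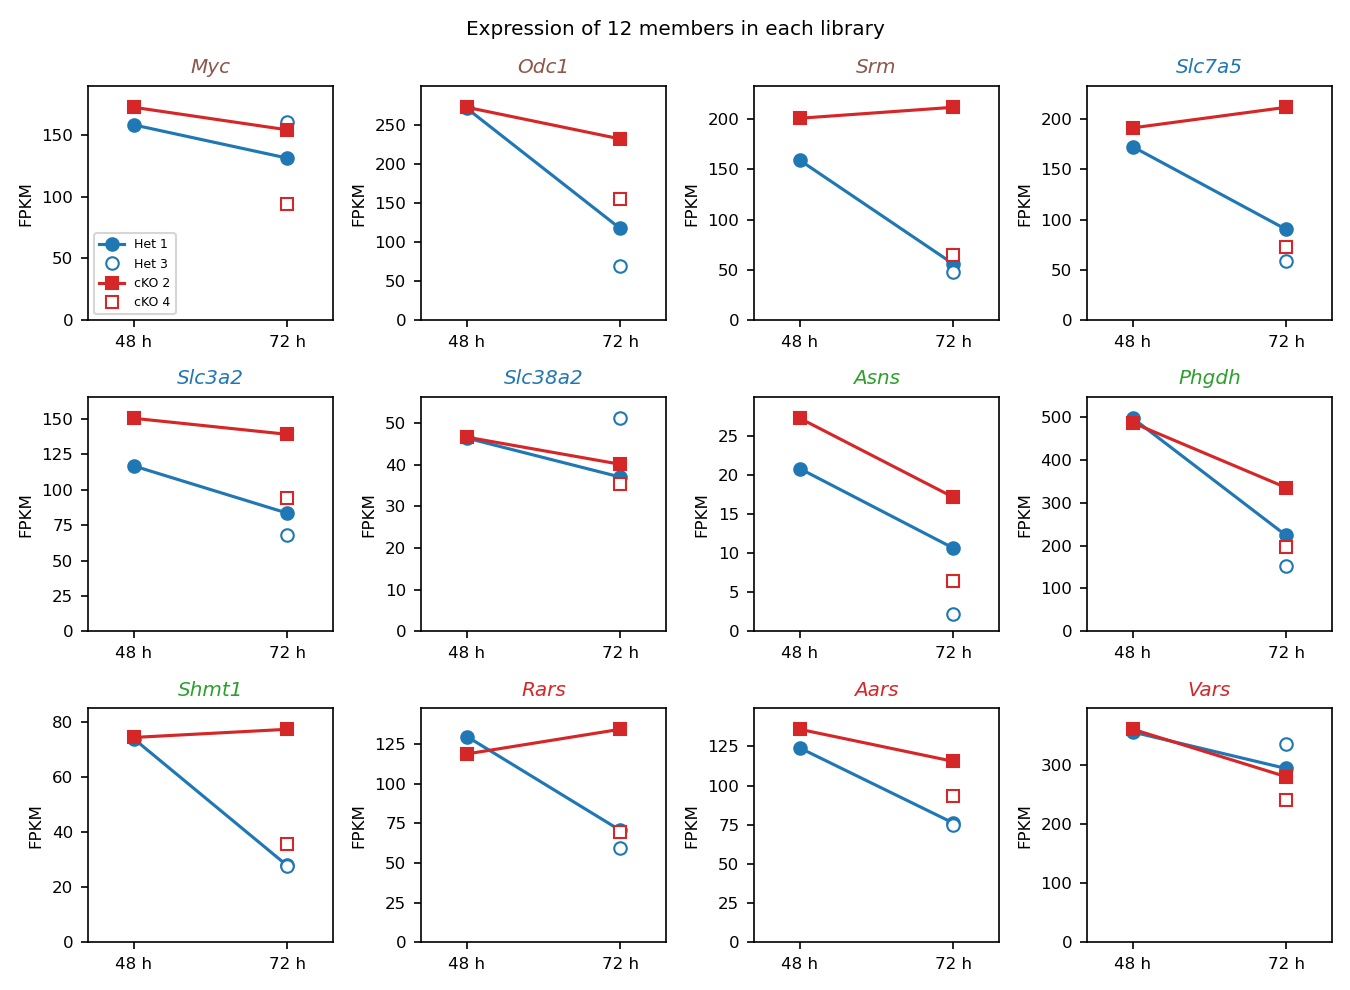
FPKM (vertical axis, from 0) of 12 members in each library at 48 h and 72 h. Blue circles are Het and red squares libraries labelled cKO, lines join replicate 1 and replicate 2 across times, open symbols are replicates 3 and 4, and gene names are coloured by class. For Srm, Slc7a5, Shmt1 and Rars only cKO 2 stays at its 48 h level, while cKO 4 lies near the Het libraries, and for Odc1 both cKO libraries lie above Het.

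Among transporters the median log2 ratio at 72 h was 0.54 in the first pair and 0.04 in the second, over 8 carriers. Slc7a5 and Slc3a2 form the heterodimer that imports large neutral amino acids such as leucine. Slc7a5 was 172 (Het) and 191 FPKM (cKO) at 48 h, followed at 72 h by 90.2 (Het 1), 211 (cKO 2), 59.0 (Het 3) and 72.6 (cKO 4). cKO 2 was far above the rest, and cKO 4 lay between the Het libraries. Slc3a2, the partner shared with other carriers, was 117 and 150.3 FPKM at 48 h and 83.4 (Het 1), 139 (cKO 2), 68.3 (Het 3) and 93.9 (cKO 4) at 72 h. Its groups did not overlap. The log2 fold changes were 0.76 ± 0.26 for Slc7a5 and 0.59 ± 0.14 for Slc3a2 (SE, limma adjusted p = 0.282 and 0.202), and without cKO 2 (and the table term) Slc7a5 stood at -0.01, Slc7a1 at -0.13 and Slc3a2 at 0.31.

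The cationic amino acid carrier Slc7a1 differed in the first pair alone: it was 51.7 (Het 1), 94.6 (cKO 2), 44.3 (Het 3) and 43.8 FPKM (cKO 4), after 99.5 and 92.1 at 48 h. Slc38a1, a glutamine carrier, was 27.7 against 40.1 FPKM and 30.4 against 31.2 (41.3 and 37.2 at 48 h), and Slc7a6, which pairs with Slc3a2, 13.9 against 18.3 and 14.7 against 15.2 (20.8 and 19.5 at 48 h). In these carriers cKO 4 was within 0.05 log2 of Het 3, and for Slc38a1 and Slc7a6 the groups just failed to overlap. Slc38a2, a paralogue of Slc38a1 singled out after its values were seen, went the other way in the second pair, with 37.1 against 40.1 FPKM and 51.1 against 35.3. Slc1a4 was low throughout, at 2.17 and 2.83 FPKM at 48 h and 0.784, 1.63, 0.179 and 0.390 at 72 h (Het 1, cKO 2, Het 3, cKO 4), and was not tested at 72 h. The most abundant carrier, Slc1a5, had a log2 fold change of 0.07 ± 0.14 (95% interval -0.31 to 0.45), and its direction flipped to -0.02 with median centring.

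The enzymes of serine, asparagine and one-carbon metabolism had median log2 ratios of 0.61 and 0.23 in the pairs, and 7 of 9 were higher in cKO in both (42.6% of all genes were). Shmt1, the cytosolic enzyme that splits serine into glycine and a one-carbon unit, was 73.8 and 74.3 FPKM at 48 h. At 72 h it was 27.9 in Het 1 and 27.8 in Het 3, against 77.3 in cKO 2 and 35.7 in cKO 4, so that the groups did not overlap and cKO 2 alone kept the level of 48 h. Mthfd1, the cytosolic enzyme that interconverts folate one-carbon units, showed the same order, with 46.9 FPKM in both libraries at 48 h and 18.5 (Het 1), 16.5 (Het 3), 44.9 (cKO 2) and 21.1 (cKO 4) at 72 h. Log2 fold changes were 0.89 ± 0.30 for Shmt1 and 0.78 ± 0.26 for Mthfd1 (SE, limma adjusted p = 0.273 for each). Exons of Shmt1 overlap those of the antisense gene Smcr8, and those of Psph overlap Cct6a, whose reads cannot be told apart without strand.

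The mitochondrial enzymes of one-carbon metabolism had fitted changes of both signs, and no difference between these genes was tested. Shmt2, the mitochondrial counterpart of Shmt1, was 115 and 131 FPKM at 48 h and 52.8 (Het 1), 102 (cKO 2), 41.7 (Het 3) and 49.1 (cKO 4) at 72 h, a log2 fold change of 0.58 ± 0.22 (limma adjusted p = 0.298). Mthfd2 and Mthfd1l, which act after it, had log2 fold changes of -0.08 ± 0.15 and -0.16 ± 0.20, with opposite signs in the pairs. Their 95% intervals ran from -0.50 to 0.33 and from -0.72 to 0.40, and that of Shmt2 from -0.02 to 1.19. Without cKO 2 (and the table term) Shmt2 stood at 0.063.

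The enzymes of serine synthesis were higher in cKO in both pairs, to different degrees. Phgdh was 496 and 486 FPKM at 48 h, and at 72 h 224 (Het 1), 335 (cKO 2), 153 (Het 3) and 197 (cKO 4). Its log2 fold change was 0.47 ± 0.13 (SE, limma adjusted p = 0.232), and cKO 4 lay below Het 1. Without cKO 2 (and the table term) it was 0.092. The next enzymes of the path, Psat1 and Psph, stood at 0.35 ± 0.18 and 0.25 ± 0.13, with Psph alike in the pairs (0.27 and 0.23) and Psat1 not (0.61 and 0.09).

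Asns, the asparagine synthetase whose promoter holds the amino acid response element shown above, differed in each pair of libraries and most in the second. At 48 h it was 20.8 (Het) and 27.3 FPKM (cKO), followed at 72 h by 10.7 (Het 1), 17.2 (cKO 2), 2.21 (Het 3) and 6.42 (cKO 4). The ratios were 0.37, 0.64 and 1.21, while the groups at 72 h overlapped because cKO 4 lay below Het 1. Its fitted difference (log2) at 72 h was 0.92 ± 0.20 (SE, limma adjusted p = 0.189). Without Het 3 (and the table term) it was -0.01, in a fit that sets cKO 4 beside Het 1 of the other table.

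The 17 cytosolic synthetases had a median log2 ratio of -0.03 at 48 h, 0.59 in the first pair at 72 h and 0.06 in the second. The summed FPKM of the class at 48 h was 1857 (Het) and 1841 (cKO). At 72 h the sum was 1356 in Het 1, 1744 in cKO 2, 1274 in Het 3 and 1230 in cKO 4, so that cKO 2 was closest to the earlier level. Of the 17, 10 were higher in cKO in both 72 h pairs (42.6% of all genes were), 2 (Vars and Sars) lower in both, and 5 differed in sign. At an unadjusted p under 0.05, 2 were higher, Aars and Cars (10.3% of all genes were), and 0 lower (6.99%), and 0 passed the limma adjusted p.

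Rars, the arginyl-tRNA synthetase, had the highest fold change of the class, with 130 and 119 FPKM at 48 h and 70.6 (Het 1), 134 (cKO 2), 59.3 (Het 3) and 69.5 (cKO 4) at 72 h. Its log2 fold change was 0.57 ± 0.21 (SE, limma adjusted p = 0.298), and cKO 4 lay between the Het libraries. Aars, the alanyl-tRNA synthetase, was 124 and 136 FPKM at 48 h and 76.2 (Het 1), 115 (cKO 2), 75.1 (Het 3) and 93.0 (cKO 4) at 72 h. Its groups did not overlap, and the log2 fold change was 0.45 ± 0.14 (limma adjusted p = 0.256).

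Kars, for lysine, and Hars, for histidine, followed Rars. Kars was 137 and 136 FPKM at 48 h and 87.5, 145, 70.2 and 77.6 at 72 h (Het 1, cKO 2, Het 3, cKO 4), and Hars 52.6 and 51.7, then 34.8, 54.5, 33.3 and 38.1 in the same order. In both, cKO 2 held the level of 48 h and the other 3 libraries lay below it, and without cKO 2 (and the table term) Kars stood at -0.01. Exons of Hars overlap the antisense gene Hars2, whose mitochondrial product is also a histidyl-tRNA synthetase. Yars, for tyrosine, was 76.9 and 85.1 FPKM at 48 h, then 48.4, 72.4, 40.2 and 47.7, and Cars, for cysteine, 69.6 and 69.5, then 44.0, 59.5, 28.9 and 37.3. Cars had close ratios in the pairs, at 0.43 and 0.36, and stood at 0.39 ± 0.12 (SE, limma adjusted p = 0.259).

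A few synthetases, singled out after their values were seen, stayed apart from the rest. Vars was 356 and 360.4 FPKM at 48 h and 294 (Het 1), 280.3 (cKO 2), 336 (Het 3) and 241 (cKO 4) at 72 h, so that both cKO libraries lay below both Het libraries, with a log2 fold change of -0.27 ± 0.16 (limma adjusted p = 0.43). Qars, for glutamine, lay between 122 and 148 FPKM in all 6 libraries, and its log2 fold change was 0.00 ± 0.12 (95% interval -0.35 to 0.34), with a sign that turned under quantile normalization. Sars, for serine, had -0.12 ± 0.12 and Wars, for tryptophan, 0.12 ± 0.12. Wars, a gene known to be induced by interferon gamma, was the only synthetase higher in both 72 h Het libraries than in the Het library at 48 h (74.4 FPKM at 48 h, then 76.6 and 91.2). For Gars, Iars and Tars, whose promoter motifs are shown above, the ratios were 0.53, 0.69 and 0.69 in the first pair and -0.09, -0.02 and -0.06 in the second.

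With time, nearly all members were lower at 72 h in Het, and most changed less in cKO 2. In cKO 2, 25 of 38 members were lower (5567 of 12394 genes were), among them 8 of 9 enzymes, with a class median of -0.23. Between 48 h and 72 h the median log2 change was -0.65 in Het 1 and -0.05 in cKO 2, against -0.03 and 0.03 for all genes. At least 1.5-fold lower were 21 of 38 members in Het 1 (9.98% of all genes) and 1, Asns, in cKO 2 (3.32%), and none was 1.5-fold higher in either (11.1% and 6.95%). In 35 of 38 members the change was more negative in Het 1 than in cKO 2, which held for 55.7% of all genes. This count is not a separate result, since it follows from the 48 h and 72 h ratios of replicates 1 and 2. The other Het library at 72 h, from the other table, lay on the same side: in 35 of 38 members both 72 h Het libraries were below the Het library of 48 h (39% of all genes), with Myc, Slc38a2 and Wars as exceptions. cKO 4, also from the other table, was not level with 48 h. The summed FPKM of the members was 4581 in cKO 2 at 48 h, then 4175 in cKO 2 and 2656 in cKO 4 at 72 h. In Het it was 4491 at 48 h, then 2875 in Het 1 and 2591 in Het 3. Levels compared across the tables may be scaled differently. The largest changes in Het 1 were those of Srm (-1.48), Shmt1 (-1.37), Mthfd1 (-1.30), Odc1 (-1.20), Phgdh (-1.15) and Shmt2 (-1.11). In cKO 2 the same genes had 0.08, 0.06, -0.06, -0.23, -0.53 and -0.36.

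**Figure D3:**
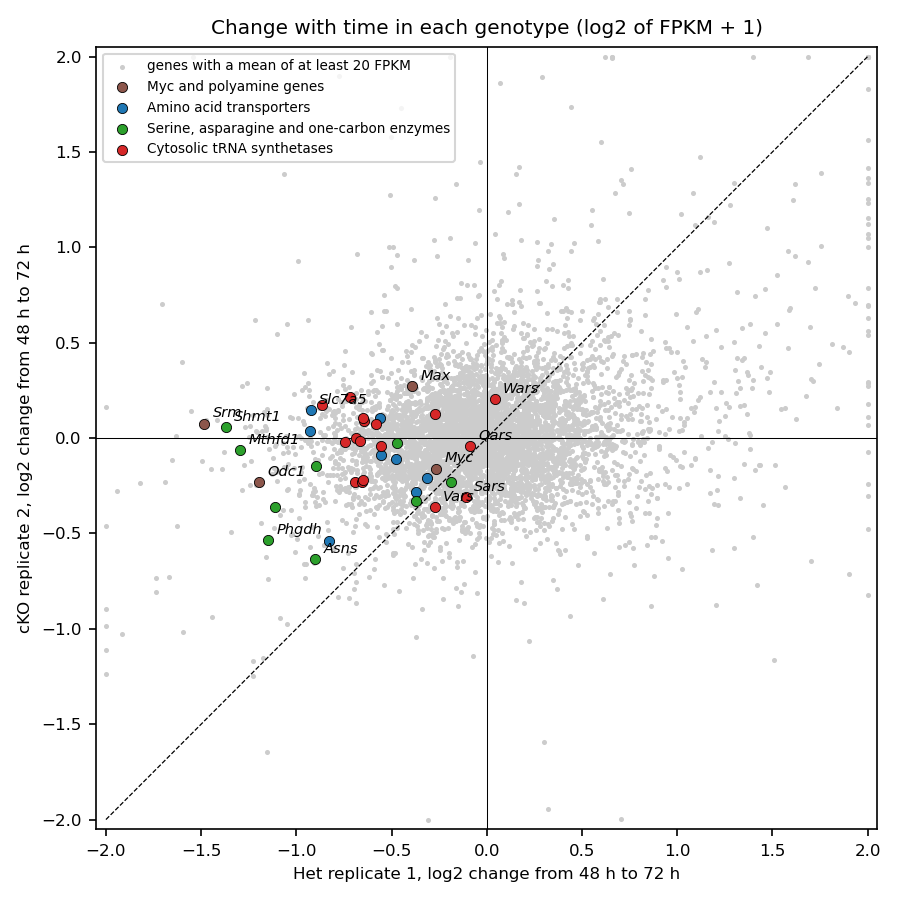
Change from 48 h to 72 h on log2(FPKM + 1), Het replicate 1 on the horizontal and cKO replicate 2 on the vertical axis, with the 38 members coloured by class and 5531 genes averaging 20 FPKM or more in grey, 49 of them beyond the axes and drawn at the edge (2 or -2). The dashed line marks equal change, and 35 of 38 members lie above it. The distance from that line follows from the genotype ratios of the same libraries at 48 h and 72 h.

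In the fit over all 6 libraries, whose time term rests on replicates 1 and 2, 0 of 38 members passed the limma adjusted p of 0.05 (0.0242% of all genes did, 3 of 12394). At an unadjusted p under 0.05, 10 members were lower (4.63% of all genes) and 0 higher (6.45%). Phgdh came first with a log2 change of -0.84 ± 0.17 (SE, limma adjusted p = 0.285), followed by Shmt2 at -0.74 ± 0.22, Asns at -0.77 ± 0.23 and Aars at -0.46 ± 0.15. The count depends on single libraries: 25 members were lower without cKO 2 at 72 h (9.57% of all genes) and 1 without Het 1 at 48 h (2.07%), and the smallest limma adjusted p was 0.0698 and 0.671. With the replicate block 4 members were lower (2.82%). The called genes of this comparison, none of them members, were Gzmb, Cd8a and Tgm2, and none was called with the replicate block, with no table term or with no filter.

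Whether the genotype difference itself differed between times was tested with an interaction term. The median log2 interaction of the members was 0.38, against 0.09 for all genes, and 32 of 38 were above 0 (7431 of 12394 genes were). None of the 38 passed the limma adjusted p (0% of all genes), with a smallest value of 0.744, and 1, Odc1 (1.06 ± 0.22, SE), was higher at an unadjusted p under 0.05 (3.43% of all genes), with 0 lower (2.28%). Without cKO 4 (and the table term) 8 were higher (4.27%). This fit had 1 residual degree of freedom, and its 72 h side averages pairs that were unlike. Averaged over both times, 7 of 38 members were higher at an unadjusted p under 0.05 (8.04% of all genes), 0 were lower (5.28%) and 0 passed the limma adjusted p (0%).

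The difference at 72 h depended on single libraries. cKO 2 was the highest of the 4 libraries in 32 of 38 members (31.1% of all genes), and cKO 4 lay below Het 1 in 26 of 38 (36.7%), although levels compared across the tables may be scaled differently. Without cKO 4 (and without the table term), the test at 72 h called 4.92% of all genes and 4 of 37 members: Srm (2.01 ± 0.26, SE, limma adjusted p = 0.00582), Shmt1 (1.44), Mthfd1 (1.31) and Slc7a5 (1.52). Without cKO 2 it called 1.79% of all genes and 0 members, with 1 member higher and 1 lower at an unadjusted p under 0.05 (8.26% and 3.65% of all genes), and the median of the synthetases went to -0.01. B cell, neutrophil and CD8 T or NK cell markers were at their highest or near it in cKO 2 at 72 h (85.7, 328 and 60.0 FPKM summed, with 38.5 for neutrophils and 31.9 for CD8 T or NK cells in Het 1), and the part of these cells in the results was not tested. In replicates 3 and 4, where the median ratio of the members was 0.10, the same sums were 9.83 and 8.81, 21.6 and 75.5, and 5.84 and 6.83 FPKM.

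Outside the members, the other cytosolic charging list (with the scaffold proteins of the multisynthetase complex, an elongation factor and the mitochondrial Gatb) had median ratios of 0.00 at 48 h, 0.66 in the first pair and 0.07 in the second at 72 h, and 0 of 8 passed the limma adjusted p, while 1 was higher and 0 lower at an unadjusted p under 0.05. Of all genes, 10.3% were higher and 6.99% lower at that level, the shares to set beside each list below. In the 72 h pairs Mars1, the methionyl-tRNA synthetase, was 76.9 FPKM in cKO 2 over 43.3 in Het 1, and 46.4 in cKO 4 over 39.8 in Het 3. Mitochondrial synthetases differed less, with 0.29 and -0.06 over 17 genes, 0 adjusted, 1 higher and 0 lower unadjusted. Of the 17 log2 fold changes, 12 were above 0 and 5 below. Fars2 and Aars2, for phenylalanine and alanine, had the smallest p, with 0.48 ± 0.15 and 0.34 ± 0.16 (SE, limma adjusted p = 0.259 and 0.351). Lars2, for mitochondrial leucine charging, went the other way, with 39.2 FPKM in Het 3 and 13.1 in cKO 4, against 33.9 and 31.0 in the first pair.

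Antagonists and partners of Myc did not share a direction. Of 13 Myc network genes tested, 0 passed the limma adjusted p, and at an unadjusted p under 0.05 1 was higher and 2 lower (10.3% and 6.99% of all genes). The medians were -0.04 and -0.08 in the pairs. The higher gene was the Myc antagonist Mxd4, at 54.7 FPKM in Het 1, 76.9 in cKO 2, 81.2 in Het 3 and 122 in cKO 4. The lower genes were Mxd3 (77.5, 24.5, 62.8 and 42.5) and Mxi1 (22.8, 10.2, 19.9 and 15.8), which are also Max partners. For Mxd3 and Mxi1, also named by their p, both cKO libraries lay below both Het libraries (13.7% of all genes did so). The genotypes overlapped for Mxd4. Mxd3 and Mxi1 in cKO 2 stood close to their 48 h values of 31.4 and 10.6 FPKM, while in Het 1 they had been 33.4 and 10.9.

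**Figure D4:**
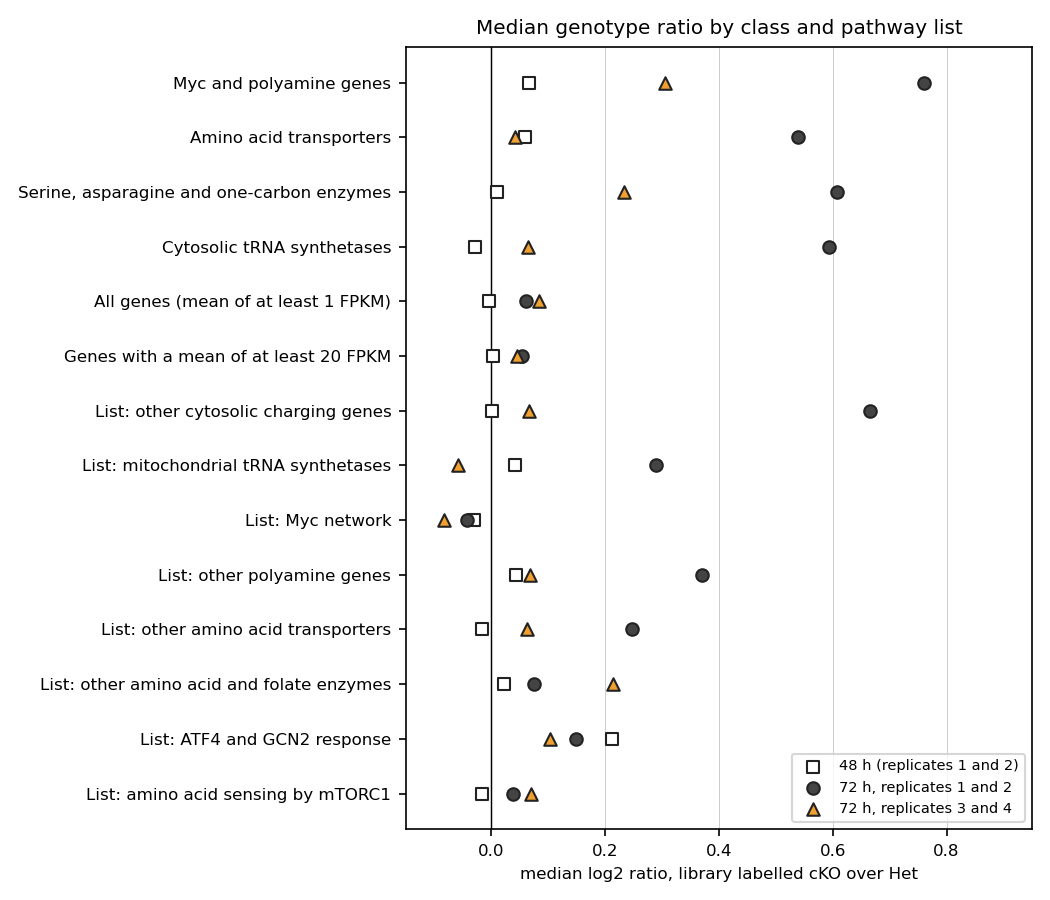
Median log2 ratio, library labelled cKO over Het (horizontal axis), for the 4 classes of members, for all genes and for 8 pathway lists outside the members, with squares for 48 h, circles for 72 h in replicates 1 and 2 and triangles for 72 h in replicates 3 and 4. The 4 classes lie between 0.54 and 0.76 in replicates 1 and 2 at 72 h and between 0.04 and 0.30 in replicates 3 and 4.

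The amino acid enzymes outside the members with the smallest p were higher in cKO in both 72 h pairs. Of 30 other amino acid and folate enzymes tested, 5 were higher and 1 lower at an unadjusted p under 0.05 (10.3% and 6.99% of all genes), and 0 passed the limma adjusted p. Bcat1, which transaminates branched-chain amino acids in the cytosol, was 10.1 (Het 1), 40.0 (cKO 2), 4.64 (Het 3) and 13.1 FPKM (cKO 4) (log2 fold change 1.60 ± 0.19, SE, limma adjusted p = 0.121), after 41.7 and 48.6 at 48 h. Gcsh, of the glycine cleavage system, was 14.7, 34.5, 13.2 and 24.4 FPKM in the same order, and the aspartate aminotransferase Got1 was 54.8, 85.0, 50.0 and 77.2. In each of these genes both cKO libraries lay above both Het libraries (25% of all genes did so). Naming them by their p in this same comparison favours such a separation. In each, cKO 2 was near its 48 h level.

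The polyamine list (14 tested) had 3 genes higher and 0 lower at an unadjusted p under 0.05 (10.3% and 6.99% of all genes), and 0 passed the limma adjusted p. Azin1 and Azin2, which shield ornithine decarboxylase from antizyme, had log2 fold changes of 0.36 ± 0.13 and 1.67 ± 0.43 (SE, limma adjusted p = 0.287 and 0.215), and the acetyltransferase Sat1, which starts polyamine breakdown, 0.42 ± 0.14. Azin2 was low, from 0.923 to 10.7 FPKM across libraries, with unlike ratios of 0.91 and 2.43 in the 72 h pairs. Other amino acid transporters (13 tested) had 2 higher and 0 lower unadjusted, beside the same shares of all genes, and 0 adjusted. The smallest p was that of the mitochondrial aspartate and glutamate carrier Slc25a13, at 6.90 (Het 1), 15.1 (cKO 2), 5.52 (Het 3) and 9.04 FPKM (cKO 4).

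The ATF4 and GCN2 list did not move as one. Of 17 tested, 0 passed the limma adjusted p, and at an unadjusted p under 0.05 3 were higher and 4 lower (10.3% and 6.99% of all genes). The medians were 0.15 and 0.10 in the pairs. While Asns was higher in cKO, Trib3, another ATF4 target, had a log2 fold change of -2.14 ± 0.15, Stc2, a secreted glycoprotein, -2.98 ± 0.18, and Sesn2, a leucine sensor of mTORC1 that p53 also induces, 1.77 ± 0.15 (SE, limma adjusted p = 0.106 for each). Of 35 genes of amino acid sensing by mTORC1, 4 were higher and 1 lower unadjusted, beside the same shares of all genes. None passed the adjusted p, and the median log2 fold change was 0.01. Among them Rragd, a Rag GTPase, stood at 0.65 ± 0.13 and Sesn3 at 0.66 ± 0.14 (SE, limma adjusted p = 0.169 and 0.187).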

How the data were processed

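RNA sequencing libraries (SMART-Seq v4 kit, per the labels' protocols) are represented by FPKM values, as the authors deposited them in 2 tables of the series. Per the submitters' processing notes HTSeq 0.6.1, TopHat2 2.0.12, Bowtie2 2.2.3 and the mm9 build were used. Annotation and strandedness: not given in the sources used here. Gene symbols came from GENCODE M21 identifiers, and 278 shared rows named by a running number alone are not analysed here. Depth was estimated with mean transcript lengths: 85.6% to 86.5% of values under 15 fragments lay within 0.02 of a whole fragment, against 3.80% to 4.42% with scrambled lengths. Tests ran on log2(FPKM + 1), a scale on which low genes change too little, with limma 3.58.1 in R 4.3.3 (variance trend, table as a term, mean of at least 1 FPKM, Benjamini-Hochberg over all genes). The additive 6-library fits had 2 residual degrees of freedom. The fits were also run on data simulated from the same model with independent noise, which cannot check how these libraries vary. The promoter sequence of 1 member is not reported here. Members and lists were chosen with earlier results of these data known. Values in each library were given for Myc, Max, Odc1 and Srm, for the 5 members per other class with the largest genotype difference at 72 h and the 3 with the largest time change. Genes named from a list are among the 3 with the smallest p. Not all of those are named, and some have a fold change only. Python 3.11.15 with pandas 2.3.3 and matplotlib 3.10.9 made tables and figures.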

Additional observations from a re-analysis of the deposited data

How the results depend on the processing

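Alternatives were pseudocounts of 0.1 and 5, no filter, a filter of 5 FPKM, TPM, quantile normalization, median centring, no table term, no variance trend, and each library left out. At 72 h the test called 0 genes; it called 8 with no filter, and 0 to 608 with a library left out (608 without cKO 4, 223 without cKO 2), of which 0 to 4 were members. The time comparison called 3 genes, 1 with a pseudocount of 5, 0 with no filter, 0 with no table term, and 0 to 4 with a library left out. Genotype over both times called 0, and 0 to 7 with a library left out; the interaction called 0, and 0 to 18. Members past the adjusted threshold numbered 0 under every other alternative of these comparisons. With the replicate block the time comparison called 0 genes and 0 members; replicate numbers are shared across times only, so each genotype has a single numbered pair and the pairing could not be checked.

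With a library left out at 72 h, class medians ran from 0.19 to 1.009 (Myc and polyamine), 0.04 to 0.45 (transporters), 0.092 to 0.85 (enzymes) and -0.01 to 0.67 (synthetases). Directions turned at 72 h for Slc1a5 (-0.01937 with median centring), Dars (-0.02478 with quantile normalization, -0.05837 with median centring) and Qars (0.0003934 with quantile normalization). Leaving out a library turned 18 members, with ranges of -0.61 to 0.086 for Myc, -0.0067 to 1.52 for Slc7a5, -0.13 to 0.97 for Slc7a1, -0.021 to 0.17 for Slc1a5, -0.43 to 0.022 for Slc38a2, -0.0075 to 1.85 for Asns, -0.14 to 0.84 for Psat1, -0.68 to 0.355 for Mthfd1l and -0.35 to 0.18 for Mthfd2. For synthetases they were -0.33 to 0.40 (Dars), -0.20 to 0.64 (Gars), -0.16 to 0.83 (Iars), -0.014 to 0.88 (Kars), -0.036 to 0.71 (Nars), -0.096 to 0.092 (Qars), -0.28 to 0.042 (Sars), -0.079 to 0.70 (Tars) and -0.0043 to 0.24 (Wars). Among the turned members, Asns, Slc7a5, Psat1, Kars, Nars and Wars were higher in cKO within both 72 h pairs, and Sars was lower in both. The other turned members had opposite signs in the pairs. Without the table term, a left-out fit also compares libraries across the tables, whose levels may be scaled differently. The cause was not tested. These fits at 72 h, and those of the interaction, ran without the table term, a choice made after seeing the data, since none with it had a residual degree of freedom; leaving out a 48 h library could not be fitted for the interaction. In the left-out fits a lone library is assumed to vary like the other group. Depth limits Slc1a4 and Slc7a11 alone among the members.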
